A study of Mus musculus with 2 samples.

Results

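The 38 genes described here are imprinted genes of the mouse, taken from a fixed list of names and grouped by imprinted cluster. They lie in 17 clusters or single-gene domains on 9 chromosomes, and 32 of them code for proteins. They were found by symbol among 55536 annotated genes, and the rule that lists them uses no measured value, although the list was drawn up with earlier results of these data known. The tissue was gastrocnemius, the large calf muscle, of male B6CASTF1/J mice aged 18 to 20 months, and its total RNA was sequenced. These animals are F1 hybrids of C57BL/6J and CAST/EiJ, carry no transgene or treatment in the labels, and form the single group of the series, with 2 libraries that the labels call biological replicates 1 and 2. The males carry different numbers in the labels and yet a single donor record, so the differences below are between these libraries and may be technical.

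An imprinted gene is transcribed mainly from the copy inherited from the mother or mainly from the copy inherited from the father. The choice is set in the germ line by DNA methylation at imprinting control regions, and a cluster usually joins protein-coding genes with a long noncoding RNA that is made from the other parental chromosome. Many of these genes act on fetal growth, and many are known to be turned down after birth, in muscle as in other organs. The parental alleles of an F1 hybrid differ in sequence, but no allele counts were analysed here, so every level is the sum over both alleles. The parent named for a gene below is textbook background.

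Muscle identity was clear in both libraries. The 10 muscle fibre markers were all detected and summed to 132770 TPM in replicate 1 and 103560 TPM in replicate 2. TPM is abundance per length, scaled to a fixed total in each library. The libraries differed in composition: all 10 slow fibre markers were called higher in replicate 2, with sums of 228 and 2531 TPM. The highest of these were Myl2, Myl3 and Myh7. Adipocyte markers summed to 296 and 732 TPM, but Car3 alone, which muscle also expresses, had 161 and 611 TPM, and the other 9 summed to 134 and 121 TPM. Schwann cell and nerve markers summed to 31.0 and 45.7 TPM, with Sox10, Prx and Ncmap called higher in replicate 2. Endothelial markers summed to 132 and 176 TPM, with Kdr and Cldn5 called higher in replicate 2. Fibroblast markers were nearly level in sum, at 586 and 567 TPM, but single markers moved in both directions. Their count ratios, replicate 2 over replicate 1, ran from 0.630 to 1.46, and none was called. Replicate 1 held 40795740 expected counts and replicate 2 held 44919441. In such bulk RNA, fewer cells of a type and less RNA per cell cannot be told apart.

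Imprinted genes in this muscle spanned more than 4 orders of magnitude on the TPM scale. With detection set at 1 TPM or more in both libraries, 21 of the 38 were detected, or 55.3%. The same rule took 19.7% of all annotated genes and 45.7% of protein-coding genes, against 53.1% (17 of 32) of the protein-coding imprinted genes. Zim1 and Inpp5f passed in 1 library only, and 15 genes passed in neither. By mean level, 2 genes stood at 100 TPM or more, 9 between 10 and 100, 11 between 1 and 10, 8 between 0.1 and 1, and 8 lower. Summed TPM over the 38 genes was 834 in replicate 1 and 953 in replicate 2, of which Gnas held 60.7% and 58.4%. The 5 most abundant genes, Gnas, H19, Ube3a, Commd1 and Snrpn, together held 85.1% and 87.3%.

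**Figure D1:**
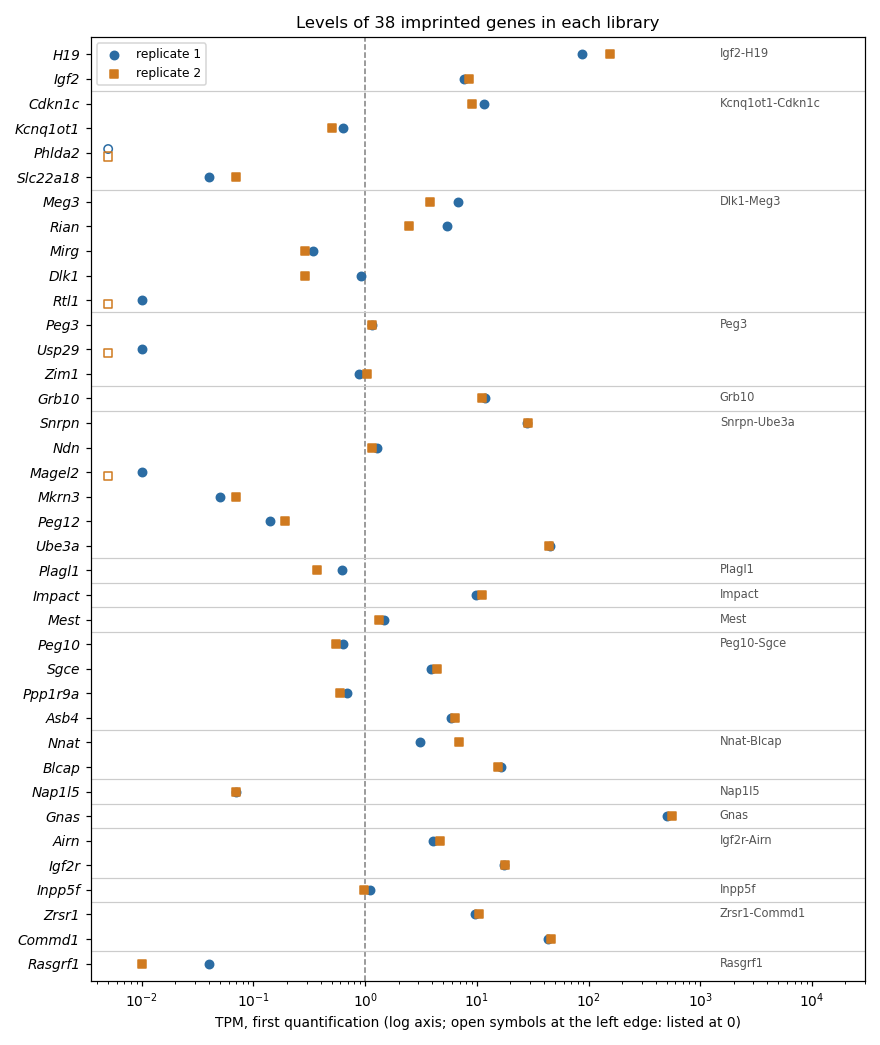
Level of each imprinted gene in TPM (log axis), with circles for replicate 1 and squares for replicate 2, grouped by cluster; open symbols at the left edge are genes listed at 0, and the dashed line marks 1 TPM. Gnas lies near 500 TPM in both libraries, H19 is the next highest, and Phlda2 is the only gene listed at 0 in both.

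By textbook assignment, 15 of the genes are maternally expressed, 22 paternally, and Gnas gives rise to RNAs of both kinds. Of the maternal genes 10 of 15 were detected, and of the paternal genes 10 of 22. The maternal genes summed to 253 and 315 TPM and the paternal genes to 74.8 and 81.4 TPM. H19 was the largest part of the maternal sum in both libraries. That sum also counts Ube3a (45.2 and 44.4 TPM) and Blcap (16.5 and 15.5 TPM) in full. Both are known to be made from both copies outside neurons or brain, so the sums do not measure RNA by parent. Commd1, at 43.4 and 46.2 TPM, is also counted in full, and its use of either copy was not measured here.

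Differences between the libraries were tested gene by gene on expected counts, scaled by TMM, with an exact binomial test over every gene whose counts averaged 10 or more. A call needed a Benjamini-Hochberg adjusted p below 0.05 and a 2-fold difference. The error in this test is counting error alone, and it speaks of these libraries only. Of the 38 genes 30 could be tested, the other 8 having too few counts, and 3 of the 30 were called (10%). Nnat was higher in replicate 2, and Dlk1 and Rian were higher in replicate 1. Over all 14965 genes tested, 6.05% were called: 4.4% of those tested were higher in replicate 2 and 1.65% of those tested were higher in replicate 1. The median size of the log2 ratio of scaled counts, without its sign, was 0.14 over the imprinted genes tested and 0.21 over all genes tested. Their median signed log2 ratio of TPM + 0.5 was -0.01, against 0.05 over all genes tested.

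**Figure D2:**
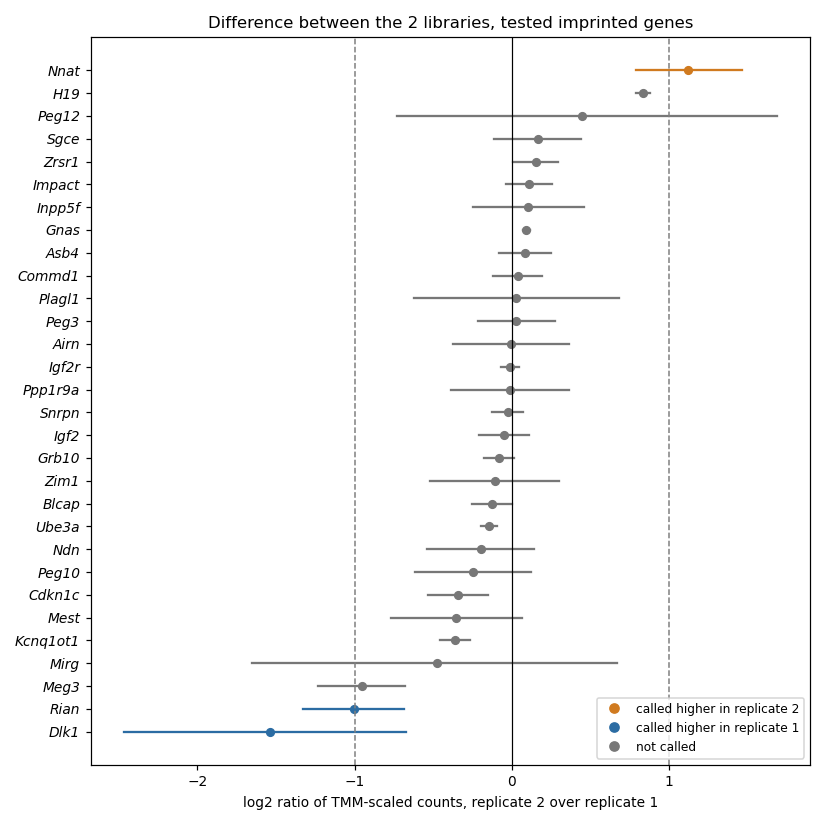
The log2 ratio of replicate 2 to replicate 1 for the 30 tested imprinted genes, from TMM-scaled expected counts, with bars for the 95% counting interval and dashed lines at 2-fold. Nnat and H19 lie to the right, Meg3, Rian and Dlk1 to the left, and most others lie near 0.

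The Igf2-H19 cluster, at chr7:142575529-142666816 of mm10, was dominated by its noncoding RNA. H19 is a maternally expressed long noncoding RNA and the host of a microRNA, and Igf2 encodes the fetal growth factor IGF2 from the paternal copy. H19 had 87.4 TPM in replicate 1 and 156 TPM in replicate 2, with a mean of 122 ± 48.3 TPM (SD, n = 2), which ranked it 511 among all genes. Igf2 had 7.72 and 8.43 TPM, with a mean of 8.08 ± 0.502 TPM (SD, n = 2). H19 therefore held 91.9% and 94.9% of the TPM of the pair, and its level was 11.3 and 18.5 times that of Igf2.

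H19 was the higher of the pair in both libraries, and the size of its lead differed between them. Its expected counts were 5686 and 11480, a scaled ratio of 1.78 in favour of replicate 2 (95% counting interval 1.73 to 1.84). The exact binomial test gave H19 an adjusted p of 3.7e-291, and H19 was not called because the ratio was under 2-fold. With scaling by the ERCC spike-ins, it was called at a log2 ratio of 1.05, while the median of all genes tested moved to 0.23. The slow fibre markers were also higher in replicate 2, and their part in the H19 difference was not tested. Igf2 had 624 and 683 counts, a ratio of 0.966 (0.866 to 1.08). Whether the ratios of the pair differ was not tested. Nctc1, a noncoding gene of the same region that was picked after its values were seen, had 80.4 and 60.7 TPM. Its counts had a ratio of 0.746, on the other side of 1 from H19.

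The leading start group was the same in both quantifications for H19 and differed for Igf2. The first deposited transcript table, made through a transcriptome alignment, was set against the second, made directly from the reads. Transcript starts within 500 nt of each other were joined into a start group. For H19 the upstream start group held 87.1% and 95.5% of TPM in the first quantification, and 95.9% and 98.2% in the direct one. Within that group the short transcript H19-206 took 0% and 0.15% of TPM in the first quantification and 9.86% and 12.1% in the direct one. The 9 Igf2 transcripts fell into 7 start groups, none of which held more than 39.5% in the first quantification. Group 6, the short transcript Igf2-209, was listed at 0 in the first quantification and held 28.0% and 21.8% in the direct one. These shares came from 14.6 and 9.71 estimated counts. Group 6 led the direct quantification in replicate 1 only, and group 3 led it in replicate 2 with 28.0%.

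Downstream of the ligand, the receptor that clears IGF2 was well represented. Igf2r, the maternally expressed mannose-6-phosphate receptor that takes IGF2 to lysosomes, had 17.4 and 17.9 TPM, with counts of 4783 and 5375 and a ratio of 0.992 (0.954 to 1.03). Airn, the paternal antisense RNA that silences Igf2r on its chromosome in most tissues, had 4.02 and 4.69 TPM from 119 and 134 counts. Igf2r stood at 4.34 and 3.81 times Airn. The genes overlap on opposite strands by 28354 nt on chr17, and strand use in counting is not given in the sources used here. For both genes the counting interval of the ratio between libraries included 1.

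Of 16 further genes of the IGF2 and IGF2R axis, all were in the files and 13 were tested. Only Irs2, an adaptor of the insulin and IGF receptors, was called: it was higher in replicate 2, with 10.2 and 30.8 TPM and a fitted fold of 2.94. The other genes of highest level were Igfbp5, a secreted IGF-binding protein, with 182 and 99.2 TPM, and the insulin receptor Insr, with 21.9 and 23.8 TPM. Igfbp5 counts had a ratio of 0.526, short of the 2-fold limit. The median log2 ratio of scaled counts over the tested genes of the list was -0.09.

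Growth inhibition downstream of these receptors is the known role of Grb10, an adaptor that binds the insulin and IGF1 receptors and restrains muscle growth. Grb10 had 11.8 and 11.2 TPM, with a mean of 11.5 ± 0.431 TPM (SD, n = 2), and 1750 and 1875 counts, a ratio of 0.946 (0.886 to 1.01). It is transcribed from the maternal copy in most tissues from an upstream start, and from the paternal copy in neurons from starts further down. The upstream start group, starting at 12037401 on chr11, held 76.2% and 89.7% of Grb10 TPM in the first quantification, and the downstream start at 12027971 held 17.6% and 7.49%. Expected counts of the downstream transcript were 305 in replicate 1 and 135 in replicate 2, with deposited posterior SDs of 63.4 and 58.3 counts. In the direct quantification the upstream group held 52.3% and 65.5% and the start at 12027971 held 23.9% and 14.8%. Starts still further down also took a share there. The group at 12026732 to 12026324 held 14.6% and 10.6%, and the start at 11970642 held 6.96% and 8.06%. In the first quantification that group held 4.06% in replicate 1 and 0 in replicate 2, and the start at 11970642 was listed at 0 in both. The upstream start led in all 4 values, with a higher share in replicate 2 by both quantifications.

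The promoter windows of the upstream Grb10 start and of the downstream start at 12027971 differ in base composition, so both are shown. Windows run from 250 bases before to 50 bases after a RefSeq start (GRCm38.p6), are written 5′ to 3′ on the strand of the gene, and carry each CpG in capitals. The upstream window, chr11:12037371-12037670 on the minus strand, holds 45 CpG. The downstream window, chr11:12027922-12028221 on the minus strand, holds 9.
Grb10 upstream window: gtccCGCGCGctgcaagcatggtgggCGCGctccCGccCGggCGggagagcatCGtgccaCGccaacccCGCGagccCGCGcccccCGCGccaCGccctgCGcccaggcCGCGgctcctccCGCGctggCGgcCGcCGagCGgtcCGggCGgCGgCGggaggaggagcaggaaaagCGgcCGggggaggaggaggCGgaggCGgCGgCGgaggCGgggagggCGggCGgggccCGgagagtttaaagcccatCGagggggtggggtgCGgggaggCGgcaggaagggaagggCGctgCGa
Grb10 downstream window: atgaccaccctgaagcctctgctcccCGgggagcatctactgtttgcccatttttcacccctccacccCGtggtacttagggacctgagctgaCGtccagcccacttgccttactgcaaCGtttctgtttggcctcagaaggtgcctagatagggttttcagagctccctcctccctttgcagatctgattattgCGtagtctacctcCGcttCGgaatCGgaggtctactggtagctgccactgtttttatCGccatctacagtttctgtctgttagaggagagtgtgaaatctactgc

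Gnas was the most abundant of the imprinted genes. It encodes the stimulatory G protein subunit Gs-alpha, which couples hormone receptors to cyclic AMP, and the locus also makes the maternal Nesp transcripts and the paternal XL-alpha-s and exon 1A transcripts. Gs-alpha itself is known to come from both alleles in most tissues. Gnas had 506 and 557 TPM, with a mean of 531 ± 35.8 TPM (SD, n = 2), and ranked 99 among all genes. Its expected counts were 25975 and 31342, a ratio of 1.07 (1.05 to 1.08) with an adjusted p of 5.1e-13 by the exact binomial test. At this depth a difference of that size passes the p threshold, and it was far short of 2-fold.

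In the first quantification nearly all Gnas RNA was placed on the main downstream start. The start group at 174330006 to 174330287 on chr2 held 99.0% and 99.4% of Gnas TPM. The upstream Nesp start at 174284320 held 0.10 TPM in replicate 1 and was listed at 0 in replicate 2. The group at 174297859 held 0.03 TPM in replicate 1 and was listed at 0 in replicate 2.

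The quantifications disagreed over the region of exon 1A. The start group at 174327570 to 174328023 held 0.97 and 0.77 TPM in the first quantification, or 0.19% and 0.14% of Gnas. In the direct quantification it held 146 and 96.9 TPM, or 17.8% and 12.1%. Most of this was a single 607 nt transcript, Gnas-218, which was listed at 0 in the first quantification and at 133 and 78.1 TPM in the direct one. The 5 transcripts whose starts lie within 250 nt of the RefSeq start there held only 1.65% and 2.34% in the direct quantification. The main start led by both methods, and the size of the minor share depended on the method.

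The windows of the maternal, paternal and main starts of Gnas are shown because the RNA was divided so unequally among them. The Nesp window, chr2:174284070-174284369 on the plus strand, holds 16 CpG. The exon 1A region window, chr2:174327499-174327798 on the plus strand, holds 27. The main window, chr2:174329756-174330055 on the plus strand, holds 40.
Gnas Nesp window: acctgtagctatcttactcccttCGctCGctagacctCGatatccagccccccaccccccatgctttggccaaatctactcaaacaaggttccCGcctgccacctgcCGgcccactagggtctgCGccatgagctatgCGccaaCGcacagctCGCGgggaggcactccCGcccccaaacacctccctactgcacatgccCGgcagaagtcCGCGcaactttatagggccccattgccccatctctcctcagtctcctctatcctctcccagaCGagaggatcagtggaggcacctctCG
Gnas exon 1A region window: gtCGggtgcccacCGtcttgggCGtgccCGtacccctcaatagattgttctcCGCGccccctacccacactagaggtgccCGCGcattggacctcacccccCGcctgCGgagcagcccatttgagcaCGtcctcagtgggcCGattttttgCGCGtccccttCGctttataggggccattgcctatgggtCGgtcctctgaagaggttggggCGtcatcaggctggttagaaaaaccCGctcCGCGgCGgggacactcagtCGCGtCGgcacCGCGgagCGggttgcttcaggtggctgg
Gnas main window: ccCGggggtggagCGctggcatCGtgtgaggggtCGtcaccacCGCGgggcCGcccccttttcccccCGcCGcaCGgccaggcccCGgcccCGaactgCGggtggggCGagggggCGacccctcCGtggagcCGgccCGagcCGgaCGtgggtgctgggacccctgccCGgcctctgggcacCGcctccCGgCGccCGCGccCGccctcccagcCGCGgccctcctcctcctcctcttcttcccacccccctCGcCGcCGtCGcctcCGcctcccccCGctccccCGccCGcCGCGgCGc

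**Figure D3:**
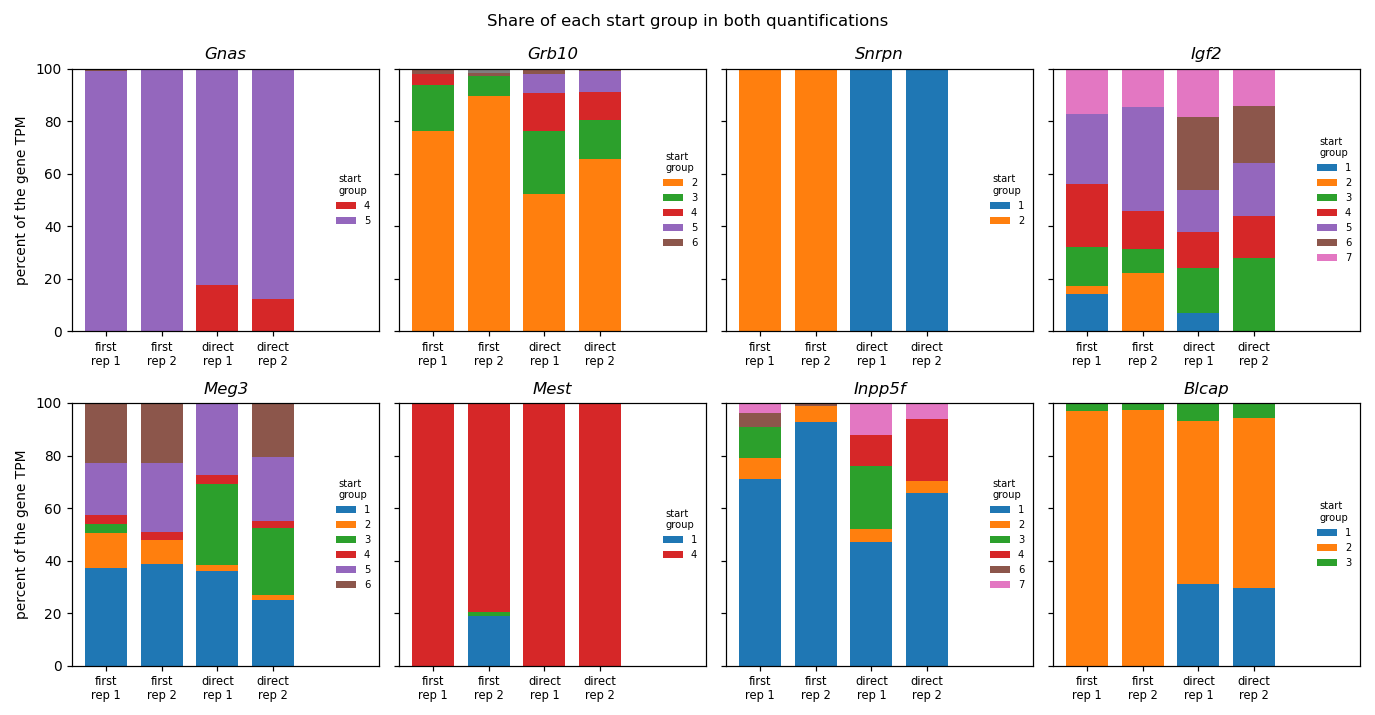
Share of a gene's TPM (percent) held by each start group, for 8 imprinted genes, in the first and the direct quantification of both libraries; start groups are numbered along the gene from its 5′ end. Gnas, Mest and Blcap are dominated by a single group in the first quantification, Snrpn moves from group 2 to group 1 between quantifications, and Igf2 and Meg3 are spread over many groups.

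The Snrpn-Ube3a cluster joined abundant genes, Ube3a and Snrpn, with genes that had a handful of counts. Ube3a, a ubiquitin ligase whose imprinting is known from neurons and which is made from both copies elsewhere, had 45.2 and 44.4 TPM. Its 6111 and 6257 counts had a ratio of 0.904 (0.873 to 0.937) and an adjusted p of 1.6e-07 by the exact binomial test. Snrpn, which encodes the splicing protein SmN from the paternal copy, had 28.3 and 28.6 TPM and a count ratio of 0.981 (0.917 to 1.05). Ube3a thus held 60.3% and 59.6% of the TPM of the cluster. Neither gene approached a 2-fold difference between the libraries.

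The remaining paternal genes of the cluster were low or near the floor. Ndn, which encodes the growth suppressor necdin, had 1.29 and 1.16 TPM from 146 and 144 counts. Peg12 had 11 and 17 counts, or 0.14 and 0.19 TPM. Mkrn3 had 4 and 6 counts. Magel2, a gene of the same MAGE family as Ndn, had 1 count in replicate 1 and 0 in replicate 2, and 3 counts would correspond to 0.0210 and 0.0191 TPM. Snhg14, the long host RNA that runs antisense to Ube3a, is not a member of the set and had 1.40 and 1.35 TPM.

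Snrpn reads were placed on different transcripts by the 2 quantifications. The first put 100% of Snrpn TPM on Snrpn-201 (start at 60005111 on chr7) in both libraries. The direct one put 100% on Snrpn-202, which starts at 60140219. Gene totals were less affected, at 36.8 and 35.2 TPM in the direct quantification. Snurf, a short reading frame that shares its RNA with Snrpn, had 74.6 and 81.4 TPM in the first quantification from 276 and 329 counts on a 216 nt model. The direct quantification listed Snurf at 0 in both libraries. The models overlap, and the division of reads between Snrpn and Snurf is uncertain.

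Neither Snrpn start can be taken as used from these values, and both windows are printed for comparison. The upstream window, chr7:60140176-60140475 on the minus strand, holds 3 CpG. The downstream window, chr7:60005150-60005449 on the minus strand, holds 7 CpG and 1 copy of the hexamer described with the promoters below.
Snrpn upstream window: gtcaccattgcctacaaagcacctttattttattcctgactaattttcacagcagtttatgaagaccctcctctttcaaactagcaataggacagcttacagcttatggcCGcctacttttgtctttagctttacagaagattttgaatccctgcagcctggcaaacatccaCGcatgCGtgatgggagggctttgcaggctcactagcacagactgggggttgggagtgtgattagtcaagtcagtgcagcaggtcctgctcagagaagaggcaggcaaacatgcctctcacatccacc
Snrpn downstream window: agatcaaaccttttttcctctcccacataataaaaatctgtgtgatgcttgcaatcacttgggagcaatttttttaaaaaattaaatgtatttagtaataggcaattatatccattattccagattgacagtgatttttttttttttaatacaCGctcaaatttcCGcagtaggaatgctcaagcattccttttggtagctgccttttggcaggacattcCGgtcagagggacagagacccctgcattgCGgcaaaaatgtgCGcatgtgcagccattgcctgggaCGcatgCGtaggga

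In the Dlk1-Meg3 cluster on chr12, Dlk1 and Rian were called higher in replicate 1, out of 4 genes tested of its 5. Over all genes tested, 1.65% were called higher in replicate 1, and the Rian call depended on the scaling, as given below. Dlk1, a membrane protein of the Notch ligand family that restrains fat cell formation, is paternal, as is the retrotransposon-derived Rtl1. Meg3, Rian and Mirg are maternal noncoding RNAs that carry microRNAs and snoRNAs. Meg3 had 6.77 and 3.82 TPM from 296 and 173 counts, a ratio of 0.516 (0.425 to 0.625). The exact binomial test gave Meg3 an adjusted p of 2.5e-11, without a call because the ratio was under 2-fold.

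Rian had 5.39 and 2.45 TPM from 225 and 127 counts, and was called higher in replicate 1 by 2.01-fold (1.61 to 2.51), with an adjusted p of 1.7e-09 by the exact binomial test. That call lies at the edge of the fold limit and was lost with DESeq2 size factors (just short of the limit), with spike-in scaling (-0.78), with plain totals (-0.96) and in the direct quantification (-0.86). Dlk1 had 0.92 and 0.29 TPM from 41 and 16 counts, and was called higher in replicate 1 by 2.90-fold (1.59 to 5.54), with an adjusted p of 0.00104 by the same exact test. Dlk1 was above Rian in fold and far below it in counts. Its call is the less precise.

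The other genes of the cluster gave little. Mirg had 16 and 13 counts, or 0.34 and 0.29 TPM, a ratio of 0.717 (0.317 to 1.59). Rtl1 had 2 counts and 1 count. Meg3 exceeded Dlk1 by 7.36 and 13.2 times in TPM in the first quantification and by 3.22 and 6.42 times in the direct one, so the noncoding side of the cluster led in both libraries. Adipocyte markers moved in both directions beside Dlk1: Lep, Adipoq and Car3 were called higher in replicate 2, and Retn and Fasn higher in replicate 1. Their part in the Dlk1 difference was not tested.

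Nnat was called higher in replicate 2 and its host gene Blcap was not called. Nnat encodes neuronatin, a small membrane proteolipid of the endoplasmic reticulum known from neurons, fat cells and pancreatic islets, and lies within Blcap on the opposite strand. Nnat had 3.13 and 6.92 TPM from 106 and 261 counts. It was called higher in replicate 2 by 2.17-fold (1.73 to 2.75), with an adjusted p of 2.8e-11 by the exact binomial test. Blcap, a maternally biased gene of the brain that is expressed from both copies in most tissues, had 16.5 and 15.5 TPM, a count ratio of 0.916 (0.838 to 1.00). Blcap exceeded Nnat by 5.27 times in replicate 1 and by 2.24 times in replicate 2.

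The neuron markers were at or near 0 in both libraries apart from Stmn2 and Uchl1, which were both called higher in replicate 2. The 10 neuron markers summed to 1.97 and 5.65 TPM, 1 was detected, and Chat was listed at 0 in both. Only Stmn2 and Uchl1, 2 of the 10, had enough counts to be tested. Stmn2 had 1.03 and 1.72 TPM, and Uchl1 had 0.74 and 3.71 TPM. Of the Schwann cell and nerve markers, 3 of 10 were called higher in replicate 2 and none lower, against 4.4% of all genes tested called higher in replicate 2. The part of these cells in the Nnat difference was not tested. Nnat starts fall in the window chr2:157559828-157560127 on the plus strand, with 17 CpG and 1 hexamer. Transcripts starting within 250 nt of it held 91.3% and 98.1% of Nnat TPM, and the direct quantification gave 100% and 93.1%.
Nnat window: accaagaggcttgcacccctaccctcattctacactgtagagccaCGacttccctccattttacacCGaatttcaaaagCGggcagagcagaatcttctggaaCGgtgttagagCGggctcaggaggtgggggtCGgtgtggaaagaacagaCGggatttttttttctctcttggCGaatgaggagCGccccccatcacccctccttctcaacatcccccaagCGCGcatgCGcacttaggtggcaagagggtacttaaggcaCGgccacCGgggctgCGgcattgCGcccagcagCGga

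Cdkn1c, the maternal inhibitor of cyclin-dependent kinases, led its cluster per length. It had 11.6 and 9.12 TPM from 493 and 440 counts, a ratio of 0.788 (0.691 to 0.898), with an adjusted p of 0.00141 by the exact binomial test. Kcnq1ot1, the paternal noncoding RNA that silences the cluster in cis, had 0.63 and 0.51 TPM. Because its model is 93092 nt long, that level came from 1844 and 1625 counts, a ratio of 0.778 (0.727 to 0.832) with an adjusted p of 1.9e-12 by the same exact test. Cdkn1c therefore held 94.5% and 94.0% of the TPM of its cluster but 21.1% and 21.3% of its counts. The ratios of the pair were nearly the same.

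The placental regulators of that cluster were not detectable or nearly so at this depth. Phlda2, which restrains placental growth, had 0 counts in both libraries, where 3 counts would be 0.238 and 0.217 TPM. Slc22a18, a transporter, had 2 and 3 counts. Kcnq1, the potassium channel gene within which Kcnq1ot1 lies on the opposite strand, had 0.10 and 0.24 TPM.

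Among the remaining clusters, Commd1 and Zrsr1 were the most abundant pair. Commd1, a regulator of copper handling and NF-kappa-B, had 43.4 and 46.2 TPM, and Zrsr1, a paternal retrogene for a splicing factor that sits in a Commd1 intron, had 9.73 and 10.5 TPM. Commd1 held 81.7% and 81.4% of their TPM, but by counts it held 46.5% and 44.5%, since its model is shorter. Commd1 counts were fractional, at 614.22 and 712.95, and the readthrough model Gm28048 overlaps the gene on the same strand, so the division of reads is uncertain. The count ratios between libraries were 1.03 for Commd1 and 1.11 for Zrsr1, and neither gene was called.

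The Peg10-Sgce cluster on chr6 was led by Asb4, a subunit of a ubiquitin ligase complex, with 5.90 and 6.39 TPM. Sgce, which encodes epsilon-sarcoglycan, had 3.89 and 4.42 TPM. Peg10, a retrotransposon-derived gene needed in the placenta, had 0.63 and 0.55 TPM, and Ppp1r9a, neurabin, had 0.69 and 0.59 TPM. Asb4 held 53.1% and 53.5% of the TPM of the cluster. The 95% counting interval of each of these 4 ratios included 1.

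Peg3, a zinc finger gene of the paternal copy also used as a marker of muscle stem and interstitial cells, had 1.16 TPM in both libraries, from 261 and 301 counts. Its maternal neighbour Zim1 had 0.89 and 1.03 TPM, and Usp29, which shares the promoter region of Peg3, had 1 and 0 counts in the first quantification and 12 and 8 in the direct one. Which gene led this cluster in TPM depended on the quantification. Peg3 held 56.3% and 53.0% of TPM in the first, while Zim1 led in the direct one with 1.87 and 1.57 TPM against 1.32 and 1.44 for Peg3. By counts Peg3 led Zim1 in both quantifications. The first gave 261 and 301 against 100 and 105, and the direct one 277 and 326 against 115 and 110.

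The other single-gene domains, beside Gnas and Grb10, lay lower in the first quantification. Impact, a paternal regulator of the translational stress kinase GCN2, had 9.90 and 11.1 TPM. In the direct quantification Impact had 18.9 and 22.5 TPM, above Grb10 with 17.8 and 15.7 TPM. Mest, an enzyme of the hydrolase family from the paternal copy, had 1.49 and 1.33 TPM from 106 and 94 counts. Inpp5f, a phosphoinositide phosphatase, had 1.10 and 0.97 TPM. Plagl1, a zinc finger factor of an imprinted growth network, had 0.62 and 0.37 TPM, although its counts were 39 and 45 because the libraries placed them on models of different length. Nap1l5 had 3 and 4 counts and Rasgrf1 had 4 counts and 1 count. None of these genes was called.

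Start use was examined for Mest and Inpp5f, whose imprinted RNAs are known to come from a particular start. All of the Mest TPM in replicate 1 and 79.7% in replicate 2 lay on the start group at 30738050 on chr6, and the direct quantification placed all but a trace there in both libraries. In replicate 2 a further 18.8%, or 0.25 TPM, was assigned to the most upstream start. That share came from 2.46 expected counts on a 382 nt transcript, with a posterior SD of 2.19, or 2.62% of Mest counts. The direct quantification listed that start at 0. For Inpp5f the full-length start held 70.9% and 92.9% in the first quantification. An internal start at 128688489 on chr7 held 3.64% in replicate 1, from 3.94 expected counts, and was listed at 0 in replicate 2. The direct quantification gave the full-length start 46.9% and 65.7% and the internal start 12.2% and 5.99%, so these shares depended on the method.

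Between the quantifications, 11 of the 20 detected genes with several transcripts kept the same leading transcript and 9 did not. Those that differed were Airn, Blcap, Cdkn1c, Gnas, Igf2, Meg3, Nnat, Snrpn and Ube3a. Direct TPM exceeded first TPM in each of the 21 detected genes, by a median of 1.46 times and a range of 1.06 (Mest) to 2.03 (Blcap). The median over all detected genes was 1.36.

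**Figure D4:**
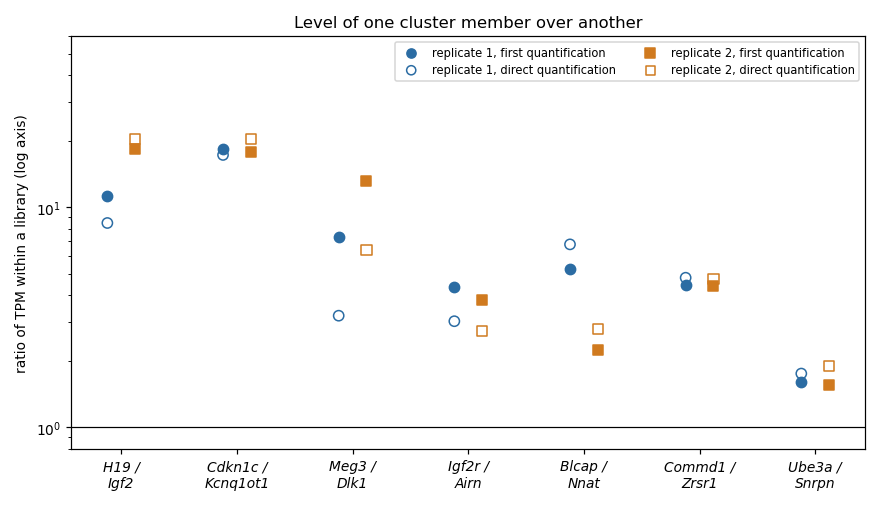
Ratio of TPM of 1 gene over its cluster neighbour within each library (log axis), for 7 pairs, with filled symbols for the first quantification, open symbols for the direct one, circles for replicate 1 and squares for replicate 2. Each ratio is above 1; Blcap over Nnat is lower in replicate 2 by both quantifications, and H19 over Igf2 and Meg3 over Dlk1 are higher.

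Promoter windows of the imprinted genes were richer in CpG than those of RefSeq genes at large. Of the 38 genes, 32 matched 48 windows of 300 bases. The median window held 13.5 CpG, with a range of 0 (Rian) to 48 (Ppp1r9a), against a median of 7 over all 32851 windows. ZFP57, a zinc finger protein that keeps methylation at imprinting control regions, recognises the methylated hexamer TGCCGC, which was searched on both strands (TGCCGC and GCGGCA). The letters were present in 11 of 48 windows (22.9%), belonging to 10 genes, against 11.6% of all windows. In the 150 bases before the start, 5 windows (10.4%) held it, against 5.95% of all. Overlapping windows of a gene, such as a pair at Mest, were counted separately. The hexamer itself contains a CpG, and the part of CpG richness in these shares was not tested. A match is a description of the letters, and methylation was not measured.

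At least 2 copies lay in 3 of the windows, from Mest and Nap1l5, against 1.53% of all windows. The Mest window that matches the leading start group, chr6:30737800-30738099 on the plus strand, holds 17 CpG and 2 hexamers and is shown as the densest case with detectable RNA.
Mest window: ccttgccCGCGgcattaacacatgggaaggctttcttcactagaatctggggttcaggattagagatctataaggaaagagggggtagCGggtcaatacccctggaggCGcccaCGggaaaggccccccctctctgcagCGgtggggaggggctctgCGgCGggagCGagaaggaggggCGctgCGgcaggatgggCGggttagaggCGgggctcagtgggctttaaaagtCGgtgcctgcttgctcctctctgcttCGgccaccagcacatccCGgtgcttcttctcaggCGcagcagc

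Of 20 genes that set or keep imprints, all were in the files, 13 were detected and 17 were tested. The highest were Mbd2, a reader of methylated DNA, with 37.7 and 36.1 TPM, Trim28, the corepressor recruited by zinc finger proteins, with 29.7 and 26.8 TPM, and the methyltransferase Dnmt3a with 22.8 and 23.0 TPM. Only the methyltransferase Dnmt3b was called, higher in replicate 2, from 0.14 and 0.38 TPM with a fitted fold of 2.43. The median log2 ratio of scaled counts over the tested genes of the list was -0.08.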

How the data were processed

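Total RNA of 2 libraries was quantified by the authors against mm10 and GENCODE M21, per the labels, with 300 ng of input and added ERCC spike-in RNAs. The aligner and programs: not given in the sources used here. In the gene and first transcript tables, the deposited expected counts per gene and transcript share out reads that fit several places, per the file headers. TPM, as deposited, is abundance per effective length, which was 99 nt below the gene length in the values. The deposited percent of isoform use and the deposited posterior SD (used as a score of assignment error) stand in the first transcript table, per the file headers. The second transcript table gives estimated counts and TPM taken directly from the reads by the authors, per the list of files deposited with each sample.

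Members were matched by symbol to GENCODE M21. Their choice, and the gene lists, were made with earlier results of these data known. All 38 are named. The rule for each further list names the 3 of highest TPM and every called gene. The cell type lists are printed only in part. The satellite cell and macrophage lists are left out, and none of their genes was called. Nctc1, Snhg14, Snurf, Kcnq1 and Chat were named after their values were seen. Expected counts were rounded and compared with an exact binomial test (scipy 1.17.1) over 14965 genes whose counts averaged 10 or more, using TMM library sizes from edgeR 4.0.16 (R 4.3.3). Intervals are 95% binomial counting intervals and, like the limit of 3 counts for a count of 0, cover counting error only. edgeR's quasi-likelihood test needs replicates within compared groups and could not be used with a single group. Fitted folds add 0.5 to scaled counts, and TPM ratios add a pseudocount of 0.5. Alternatives were DESeq2 1.42.0 size factors, spike-in or total scaling, other filters, folds and pseudocounts, the direct quantification, and other gaps between starts, the last chosen after seeing the data. The test was checked on simulated data. Promoter windows and their start sites are from RefSeq (GRCm38.p6).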

Additional observations from a re-analysis of the deposited data

How the results depend on the processing

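With detection at 5 TPM, 13 genes were detected in place of 21. Leaving out replicate 1 or replicate 2 gave 22 in each case. A 1.5-fold limit called 5 genes (H19, Meg3, Rian, Dlk1 and Nnat) in place of 3, where 11.5% of all genes tested were called. edgeR's exact test with a common dispersion called 0, against 1.82% of all genes. That dispersion (0.227 as a coefficient of variation) was estimated from the same 2 libraries taken as 1 group. The differences under test therefore set its error, so this test cannot decide whether a gene differed. The value cannot be read as biological variation. Under DESeq2 factors, plain totals and the direct quantification 2 genes were called, where 6.04%, 6.17% and 5.90% of all genes were. Spike-in scaling called 3, against 8.00% of all. Nnat was called under each of those and under both count filters. The median log2 ratio with spike-in scaling was 0.20, while all genes tested shifted to 0.23. The cause of these changes was not tested. Levels in TPM moved with the denominator: without mitochondrial and short genes, TPM rose by 2.13 and 2.23 times.

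No paired analysis was possible because the series has 1 group. No test of biological variation was possible with 2 libraries in that group. Genes with a few counts, such as Rtl1, Magel2 and Rasgrf1, have levels set by single reads. Transcript shares rest on reads that several models can explain, and the leading transcript differed between quantifications for 9 genes.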

Other observations

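Of 45 further genes known to be imprinted in mouse tissues, 23 were detected and 29 were tested. The highest was Dcn, the fibroblast proteoglycan decorin and a placental imprint, with 139 and 159 TPM. It is also on the list of fibroblast markers. Nap1l4, a histone chaperone, had 87.1 and 84.4 TPM. Snurf ranked with them at 74.6 and 81.4 TPM, in the first quantification, and was listed at 0 in both libraries in the direct one. Called genes were Ampd3, an AMP deaminase, higher in replicate 2 with 1.74 and 6.39 TPM and a fitted fold of 3.03, and Zdbf2, higher in replicate 1 with 0.14 and 0.05 TPM and a fold of 3.16. The median log2 ratio of scaled counts was 0.013 over the tested genes of the list and 0.009 over all genes tested. In the list, 6 genes were listed at 0 in both libraries.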
